A study of Homo sapiens with 6 samples.

Results

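The genes described here are 37 members of the cell's response to amino acid shortage and to unfolded protein in the endoplasmic reticulum (ER), among 60658 Ensembl gene identifiers in the data. They were taken from a given list of gene symbols, drawn up with earlier results of these data known, and the rule for membership uses no measured value. By known function they were split into an ATF4 arm of 21 genes and a chaperone arm of 16 genes. The chaperone arm is named after its 9 chaperones and cofactors. It also holds 3 degradation genes, the transcription factor XBP1 and the 3 sensors ATF6, ERN1 and EIF2AK3. EIF2AK3 is a kinase of the eIF2 pathway that acts ahead of ATF4, and it is counted here with the ER sensors. All 37 were measured, which here means at least 1 FPKM in at least 1 library, as was true of 17436 identifiers in all. FPKM is a fragment count corrected for transcript length and library size, so it allows levels of different genes to be compared.

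The study sequenced mRNA of 6 cell lines of human prostate cancer, 1 library per line, and compared taxane-resistant lines with the lines they came from. C4-2B, an LNCaP-derived line that expresses the androgen receptor and grows after castration, was the parent of TaxR, a docetaxel-resistant line kept under 5 nM docetaxel. CabR consists of TaxR cells that became resistant to cabazitaxel and were kept under 5 nM cabazitaxel. DU145, a prostate carcinoma line without androgen dependence, was in the same way the parent of DTXR (5 nM docetaxel), and DTXR of CTXR (5 nM cabazitaxel). All 6 lines grew in RPMI medium with fetal bovine serum, penicillin and streptomycin, and were labelled as untreated before harvest. Each resistant line is a single selected derivative, and "old" in the title of the TaxR sample is not explained by the labels.

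When amino acids run short or unfolded protein collects in the ER, kinases that phosphorylate the translation factor eIF2 slow protein synthesis and let the ATF4 mRNA be translated more. ATF4 is a transcription factor that raises genes for amino acid synthesis, amino acid import and tRNA charging, and also DDIT3 (CHOP) and the feedback inhibitor TRIB3. Unfolded ER protein also activates the sensors ATF6 and ERN1 (IRE1), which work through cleaved ATF6 and spliced XBP1 to raise ER chaperones and the machinery that exports and degrades misfolded protein. An mRNA level does not show how much ATF4 protein was made, nor how far XBP1 was spliced.

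The promoters of the 2 arms were searched for short motifs known from each arm, and a few stretches that hold them are shown for members whose values are given further on. Since the motifs were chosen as known from each arm, a higher share in the windows of that arm is no independent result. Whether the motifs bear on the expression values was not tested. RefSeq windows (GRCh38.p14, 250 bases before to 50 after the first listed start of a gene) were at hand for 35 of the 37 members, all but PSPH and SHMT2. The ATF4 site TGATGNAA, searched on both strands, occurred in 3.67% of 27305 gene windows. It was found in 5 of 19 ATF4-arm windows, those of CHAC1, ASNS, SLC3A2, SLC7A1 and AARS1, and in 1 of 16 chaperone-arm windows, that of HERPUD1. The ER stress response element, CCAAT and CCACG with 9 bases between them, was rare, in 0.0806% of all windows. It was found in 5 chaperone-arm windows (XBP1, HSPA5, HSP90B1, CALR and CRELD2) and in 0 of 19 ATF4-arm windows. The related element II, ATTGG and CCACG with 1 base between them, occurred in 0.0549% of all windows, in 3 chaperone-arm windows (SDF2L1, HYOU1 and HERPUD1) and in 0 ATF4-arm windows. The window of TRIB3, a known ATF4 target, held none of these letters. HERPUD1 was the member whose window held a match from each family. A match is a run of letters and not a measured binding site. The stretches below are printed 5′ to 3′ on the gene's strand with matches in capitals. SDF2L1, CRELD2 and AARS1 were added after their values were seen. The 3 ATF4 sites of ASNS, CHAC1 and AARS1 lie inside annotated exons and are given with 30 bases only.
ASNS, chr7:97872458-97872487, minus strand: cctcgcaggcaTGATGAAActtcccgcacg
CHAC1, chr15:40953251-40953280, plus strand: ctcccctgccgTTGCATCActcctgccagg
AARS1, chr16:70289675-70289704, minus strand: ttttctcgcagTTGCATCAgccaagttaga
HERPUD1, chr16:56931892-56932047, plus strand, ATF4 site first and element II second: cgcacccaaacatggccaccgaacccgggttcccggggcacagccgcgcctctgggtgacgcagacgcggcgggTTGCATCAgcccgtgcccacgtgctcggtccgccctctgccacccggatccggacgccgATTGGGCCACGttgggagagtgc
HSPA5, chr9:125241344-125241593, minus strand, ER stress response element: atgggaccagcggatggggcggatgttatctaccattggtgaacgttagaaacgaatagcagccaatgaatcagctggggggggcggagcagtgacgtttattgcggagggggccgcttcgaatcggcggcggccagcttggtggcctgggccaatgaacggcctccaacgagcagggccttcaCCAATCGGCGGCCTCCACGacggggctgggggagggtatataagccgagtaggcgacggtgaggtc
SDF2L1, chr22:21642052-21642260, plus strand, element II read on the other strand: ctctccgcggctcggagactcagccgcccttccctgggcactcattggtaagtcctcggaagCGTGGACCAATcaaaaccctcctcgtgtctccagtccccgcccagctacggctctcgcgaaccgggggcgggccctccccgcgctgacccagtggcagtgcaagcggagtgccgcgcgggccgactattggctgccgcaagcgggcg
CRELD2, chr22:49918459-49918633, plus strand, ER stress response element read on the other strand: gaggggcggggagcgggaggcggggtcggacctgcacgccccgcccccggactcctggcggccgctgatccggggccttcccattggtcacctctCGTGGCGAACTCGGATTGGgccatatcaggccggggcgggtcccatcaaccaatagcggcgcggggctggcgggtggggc

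With 1 library per line, a difference between a pair of lines has no replicate check and carries no p-value. The size rule calls a gene higher or lower where the log2 ratio of (FPKM + 1) reaches 1 in either direction, and adding 1 makes the change of low genes look smaller. In bulk RNA, fewer cells that express a gene and less RNA per cell cannot be told apart. Total FPKM lay between 711766 and 818430 per library, and read depth is unknown. The mitochondrial share of all FPKM was 17.9% (C4-2B), 27.9% (TaxR), 26.5% (CabR) and 35.3% to 40.7% (DU145 lineage). The 9 measured markers of androgen receptor-positive prostate cells summed to 2481 to 5310 FPKM in the C4-2B lineage and to 8.95 to 14.02 in the DU145 lineage. The 10 markers of DU145-type cells summed to 2950 to 3914 FPKM in the DU145 lineage and to 46.9 to 100.005 in the C4-2B lineage. In TaxR 8 of those 10 markers were higher than in C4-2B by the size rule, against 2.52% of all measured genes. VIM, at 491 FPKM in DU145, did not differ, with 61.0 FPKM in C4-2B and 60.8 in TaxR. LGALS1, at 7.08 and 12.8 FPKM, was short of the rule. Both stood above 1 FPKM in C4-2B and were left out of the estimate that follows. For the 8 markers under 1 FPKM in C4-2B, the share of DU145 RNA that would give the TaxR level was estimated marker by marker. These shares ran from 0.362% to 5.26% with a median of 1.38%, so no single share gave all the levels. TaxR thus stands apart in these markers from the other libraries of its lineage. The cause was not tested, and arm medians with TaxR are also given with the median share removed. Of 5 leukocyte markers none was measured, with sums of at most 0.575 FPKM.

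In the C4-2B lineage most members of both arms were below the parent in each resistant line. In TaxR 19 of 21 ATF4-arm genes and 16 of 16 chaperone-arm genes had a lower level than in C4-2B, against 50.2% of all measured genes. The median log2 ratios were -0.62 for the ATF4 arm and -0.64 for the chaperone arm, with 0.00 for all measured genes. In CabR 18 of 21 and 15 of 16 were below C4-2B, again against 50.2% of all genes, with medians of -0.57 and -0.63. Past the size rule, 6 ATF4-arm genes were lower and 1 was higher in TaxR, and 3 chaperone-arm genes were lower. The shares of all measured genes past the rule were 5.64% lower and 2.52% higher. In CabR 4 ATF4-arm and 3 chaperone-arm genes were lower and 0 of either arm were higher, against 6.2% lower and 2.67% higher of all genes. Both comparisons use the same C4-2B library, so their likeness is not a repeat. With the estimated DU145 share removed from TaxR the medians were -0.68 and -0.63, with the same counts of 19 and 16 below C4-2B.

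**Figure D1:**
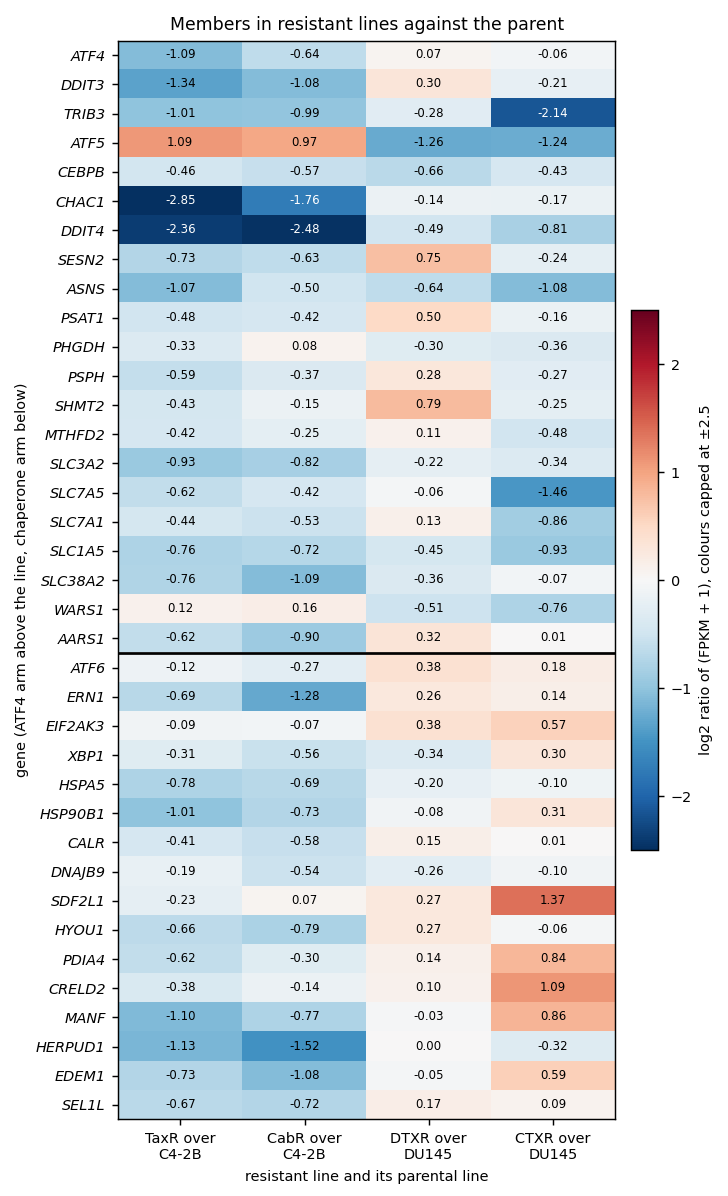
Log2 ratio of (FPKM + 1) of the 37 members (rows, ATF4 arm above the line and chaperone arm below) in each resistant line against its parent (columns, 1 library per line); blue is lower and red higher than the parent. The TaxR and CabR columns are mostly blue in both arms, while in the CTXR column the ATF4 arm is mostly blue and SDF2L1 (1.37) and CRELD2 (1.09) are red.

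Among the regulators, ATF4 itself (ENSG00000128272, chromosome 22, 39519695 to 39522685, plus strand, GRCh38 as are all gene coordinates here) stood at 285 FPKM (C4-2B), 133 (TaxR) and 182 (CabR). It stood at 394 FPKM (DU145), 413 (DTXR) and 377 (CTXR). TaxR was the lowest of the 6 libraries, and the 3 lines of the DU145 lineage lay above all 3 of the C4-2B lineage. The log2 ratio to C4-2B was -1.09 in TaxR and -0.64 in CabR, so that ATF4 was lower by the size rule in TaxR only.

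DDIT3, a pro-apoptotic transcription factor (chromosome 12, 57516588 to 57521737, minus strand), stood at 38.7 FPKM (C4-2B), 14.6 (TaxR) and 17.7 (CabR). It was lower in both resistant lines, with log2 ratios of -1.34 and -1.08. In the DU145 lineage it stood at 52.2 (DU145), 64.5 (DTXR) and 44.9 (CTXR) FPKM, with no line past the rule. DDIT3 overlaps MARS1 on the opposite strand, which stood at 111 (C4-2B), 58.5 (TaxR) and 64.2 (CabR) FPKM and 188 (DU145), 210.4 (DTXR) and 139.8 (CTXR). Whether counting used strand is not stated, so reads of the pair may not be fully separated.

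TRIB3, a pseudokinase that ATF4 induces and that feeds back on it (chromosome 20, 362835 to 397559, plus strand), stood at 62.4 FPKM (C4-2B), 30.4 (TaxR) and 30.9 (CabR). The log2 ratios of -1.01 and -0.99 lay on either side of the rule, and the TaxR value was -0.98 to -0.96 with the libraries scaled without mitochondrial genes, by upper quartile or by median ratio. In the DU145 lineage TRIB3 stood at 204 FPKM (DU145), 167 (DTXR) and 45.4 (CTXR). The CTXR level was lower than that of DU145 by a log2 ratio of -2.14, the lowest of any member in that line.

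ATF5, a bZIP factor related to ATF4 (chromosome 19, 49928702 to 49933935, plus strand), ran against most of the arm in the C4-2B lineage. It stood at 19.9 FPKM (C4-2B), 43.3 (TaxR) and 39.9 (CabR), and 14.4 (DU145), 5.40 (DTXR) and 5.51 (CTXR). It was higher in TaxR (1.09) and just short of the rule in CabR (0.97), and lower in both DTXR (-1.26) and CTXR (-1.24). ATF5 overlaps NUP62 on the opposite strand, whose FPKM was 37.8, 48.8 and 51.2 in the C4-2B lineage and 48.3, 64.4 and 41.6 in the DU145 lineage. CEBPB, a partner of ATF4 and CHOP, was below the parent in all 4 resistant lines without passing the rule, with log2 ratios from -0.66 to -0.43.

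The widest differences in the C4-2B lineage were in the stress effectors. CHAC1, an enzyme that degrades glutathione (chromosome 15, 40952962 to 40956519, plus strand), stood at 11.5 FPKM (C4-2B), 0.743 (TaxR) and 2.71 (CabR). It stood at 29.4 FPKM (DU145), 26.6 (DTXR) and 26.1 (CTXR). Its level was thus lower in TaxR (-2.85) and in CabR (-1.76), while the DU145 lines differed little. DDIT4 (REDD1), an inhibitor of mTORC1 that hypoxia is also known to induce (chromosome 10, 72273920 to 72276036, plus strand), stood at 823 FPKM (C4-2B), 159 (TaxR) and 147 (CabR). It stood at 151 (DU145), 108 (DTXR) and 85.7 (CTXR) FPKM, so C4-2B stood above all 5 other libraries. The log2 ratios were -2.36 in TaxR and -2.48 in CabR. SESN2, a leucine-sensing inhibitor of mTORC1, was at -0.73 and -0.63 and passed the rule in no line.

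**Figure D2:**
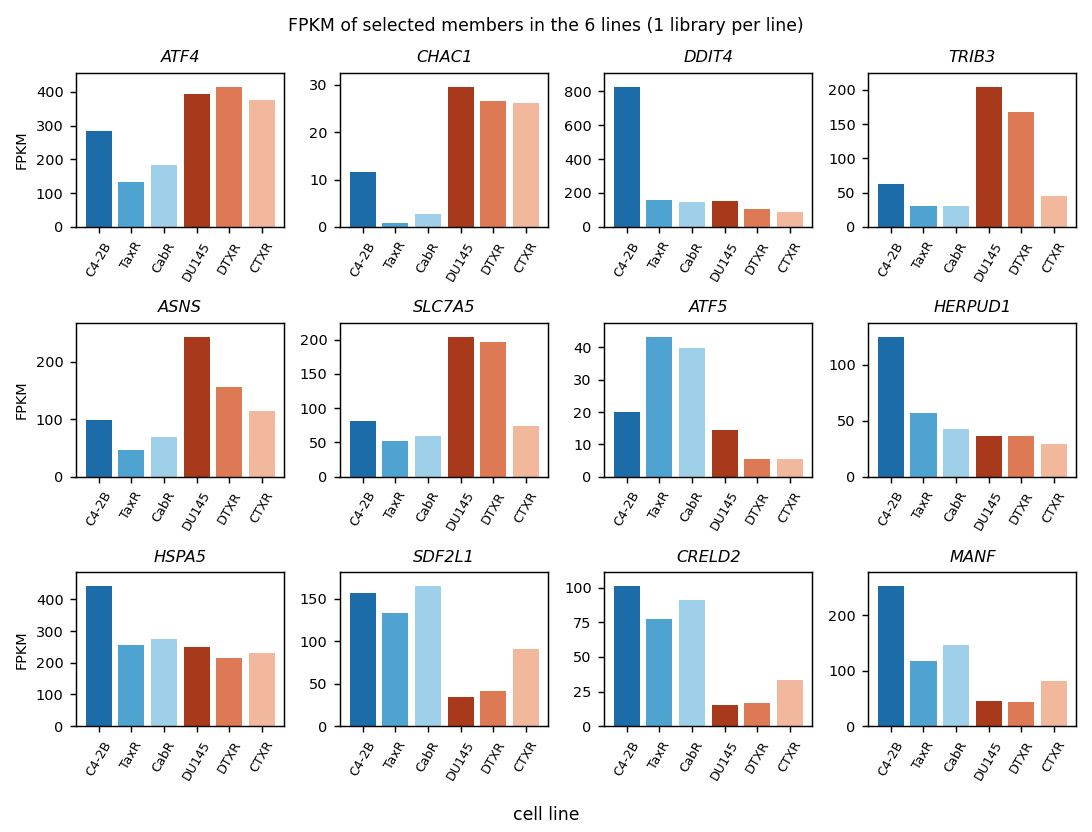
FPKM of 12 members in the 6 lines, 1 bar per library on a linear axis from 0, C4-2B lineage in blue and DU145 lineage in red. CHAC1 and DDIT4 are highest in the parent within the C4-2B lineage (11.5 and 823 FPKM), TRIB3 and SLC7A5 are lower in CTXR than in DU145 and DTXR, and SDF2L1, CRELD2 and MANF are higher in the C4-2B lineage than in the DU145 lineage.

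The amino acid and one-carbon enzymes differed less from C4-2B. ASNS, which makes asparagine (chromosome 7, 97852118 to 97872542, minus strand, its ATF4 site shown above), stood at 98.5 FPKM (C4-2B), 46.2 (TaxR) and 69.4 (CabR). It was lower in TaxR (-1.07) and at -0.50 in CabR. It stood at 243 (DU145), 155 (DTXR) and 114 (CTXR) FPKM and was lower in CTXR (-1.08). The 3 enzymes of serine synthesis, PHGDH, PSAT1 and PSPH, and the mitochondrial folate enzymes SHMT2 and MTHFD2 passed the rule in no comparison with a parent. Their log2 ratios lay between -0.59 and 0.08 in TaxR and CabR, and between -0.48 and 0.79 in DTXR and CTXR. SHMT2 stood at 124 FPKM (DU145), 216 (DTXR) and 104 (CTXR), so the middle line stood above its parent and its derivative.

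All 5 amino acid transporters were below C4-2B in TaxR and CabR, against 50.2% of all measured genes in each line. Past the rule 0 were lower in TaxR and 1 in CabR, against 5.64% and 6.2% of all genes. SLC38A2, a sodium-coupled importer of neutral amino acids, stood at 151.9 FPKM (C4-2B), 89.2 (TaxR) and 70.7 (CabR), with a log2 ratio of -1.09 in CabR. SLC3A2, the heavy chain that carries several light-chain transporters to the membrane, had 149, 77.6 and 83.5 FPKM, at -0.93 and -0.82, and was past the rule in TaxR (-1.01) with the DU145 share removed. The other 3, SLC7A5 (the LAT1 light chain), SLC7A1 (an importer of basic amino acids) and SLC1A5 (a glutamine importer), lay between -0.76 and -0.42. Of the tRNA synthetases, AARS1 was at -0.62 and -0.90, while WARS1 was at 0.12 and 0.16, the first of which was below 0 (-0.04) with libraries scaled to 1 total.

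In the chaperone arm of the C4-2B lineage, genes of ER-associated degradation had the lowest class medians, -0.73 in TaxR and -1.08 in CabR. HERPUD1, an ER membrane protein of that pathway whose promoter stretch holds matches from both families (chromosome 16, 56932048 to 56944863, plus strand), stood at 125 FPKM (C4-2B), 56.5 (TaxR) and 42.9 (CabR). It was lower in both resistant lines, at -1.13 and -1.52. It stood at 36.6 (DU145), 36.75 (DTXR) and 29.2 (CTXR) FPKM, all below the 3 lines of the other lineage. EDEM1, a lectin that marks misfolded glycoproteins for disposal, had 43.7, 25.9 and 20.1 FPKM and was lower in CabR (-1.08). SEL1L, the adaptor of the HRD1 ubiquitin ligase, was at -0.67 and -0.72.

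Of the 9 chaperones and cofactors, 2 were lower in TaxR and 0 in CabR, against 5.64% and 6.2% of all measured genes. HSP90B1 (GRP94), the ER member of the HSP90 family, stood at 724 FPKM (C4-2B), 359.6 (TaxR) and 436 (CabR). Its log2 ratio of -1.01 in TaxR just met the rule, and it was -0.98 to -0.95 with the libraries scaled without mitochondrial genes, by upper quartile or by median ratio. MANF, a secreted ER stress protein, stood at 251 FPKM (C4-2B), 117 (TaxR) and 147 (CabR), at -1.101 and -0.77. HSPA5 (BiP), the central ER chaperone (chromosome 9, 125234853 to 125241330, minus strand), had 441, 256 and 274 FPKM and did not meet the rule (-0.78 and -0.69). The lectin chaperone CALR had 947, 711 and 633 FPKM, the highest level of any member in each of these 3 libraries.

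Of the sensors, ERN1 stood at 15.1 FPKM (C4-2B), 8.97 (TaxR) and 5.61 (CabR) and was lower in CabR (-1.28). EIF2AK3 (PERK), the ER kinase that acts on eIF2, had 12.5, 11.7 and 11.9 FPKM, and ATF6 8.46, 7.72 and 6.87. XBP1, counted over spliced and unspliced forms together, had 119.5, 96.1 and 80.7 FPKM. None of these 3 was past the rule.

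Other gene groups moved in the same samples. The 11 targets of hypoxia-inducible factor on a context list summed to 3990 FPKM (C4-2B), 1323 (TaxR) and 1091 (CabR). By the size rule 10 of 11 were lower in each resistant line, against 5.64% (TaxR) and 6.2% (CabR) of all measured genes. The mitochondrially encoded mRNAs were above C4-2B for 13 of 13 genes in TaxR and 12 of 13 in CabR, with 5 and 4 past the rule. Of all measured genes 45.4% and 44.9% were above, with 2.52% and 2.67% past the rule. The part of either in the levels of the 37 members was not tested. With libraries rescaled to 1 total without mitochondrial genes the arm medians were -0.59 and -0.61 in TaxR and -0.51 and -0.57 in CabR.

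In the DU145 lineage the docetaxel-resistant line lay near its parent in both arms. In DTXR 9 ATF4-arm genes were above and 12 below DU145, with a median log2 ratio of -0.14, and 10 chaperone-arm genes were above and 6 below, with a median of 0.12. Of all measured genes 48.5% were above and 47.4% below. By the size rule ATF5 was lower and 0 members were higher, against 5.1% lower and 5.37% higher among all measured genes. The closest to the rule in the upward direction were SHMT2 (0.79) and SESN2 (0.75), and the next lowest after ATF5 was CEBPB (-0.66).

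In the cabazitaxel-resistant CTXR the 2 arms parted. Of the ATF4 arm 20 of 21 genes were below DU145, against 48.2% of all measured genes, with a median log2 ratio of -0.36. The exception, AARS1, was at 0.01, and it was below 0 with 3 of 4 other scalings. Of the chaperone arm 12 of 16 were above DU145, also against 48.2%, with a median of 0.24. With the other scalings 10 to 12 of the 16 were above, and the median was lowest, at 0.11, with mitochondrial genes left out of the total. Past the size rule 4 ATF4-arm genes were lower and 0 higher, and 2 chaperone-arm genes were higher and 0 lower. The shares of all measured genes were 5.47% lower and 7.45% higher, so the 2 of 16 higher chaperone genes are not far from that background. Here the mitochondrial share of FPKM was 35.3% in CTXR against 40.7% in DU145, and its part in these ratios was not tested beyond the scalings. Of the 11 targets of hypoxia-inducible factor 3 were lower and 0 higher in CTXR, and their part was not tested.

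The 4 lower genes were TRIB3, SLC7A5, ATF5 and ASNS. SLC7A5, which with SLC3A2 imports leucine and other large neutral amino acids (chromosome 16, 87830023 to 87869488, minus strand), stood at 204 FPKM (DU145), 196 (DTXR) and 73.5 (CTXR), a log2 ratio of -1.46. Its pseudogene copies SLC7A5P1 and SLC7A5P2, between which and the gene reads may have been divided, had 3.06 and 3.95 FPKM in DU145 and 0.900 and 0.389 in CTXR. SLC1A5 had 215, 157 and 112 FPKM, at -0.93, and SLC7A1 54.2, 59.4 and 29.4, at -0.86. Both were past the rule, SLC1A5 at -1.08 and SLC7A1 barely, with mitochondrial genes left out of the total. SLC3A2 (-0.34) and SLC38A2 (-0.07) lay nearer to the parent. ATF4 mRNA itself differed from DU145 by -0.06, and CHAC1 by -0.17.

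The 2 higher chaperone-arm genes were SDF2L1, a cofactor of BiP (chromosome 22, 21642261 to 21644298, plus strand), and CRELD2, an ER protein with disulfide isomerase activity (chromosome 22, 49918167 to 49927540, plus strand). SDF2L1 stood at 34.6 FPKM (DU145), 41.9 (DTXR) and 90.95 (CTXR), and 157 (C4-2B), 134 (TaxR) and 164 (CabR). Its log2 ratio to DU145 was 1.37, and CTXR still lay below every line of the other lineage. CRELD2 had 15.2, 16.4 and 33.6 FPKM in the DU145 lineage and 101, 77.2 and 91.5 in the C4-2B lineage. Its ratio in CTXR was 1.09, and 0.96 with mitochondrial genes left out of the total. CRELD2 overlaps ALG12 on the opposite strand, which stood at 7.86 (DU145), 4.53 (DTXR) and 7.09 (CTXR) FPKM.

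MANF stood at 44.4 FPKM (DU145), 43.6 (DTXR) and 81.3 (CTXR), and the disulfide isomerase PDIA4 had 77.9, 85.7 and 139.8. At 0.86 and 0.84 both lay just short of the rule. EDEM1 (0.59), EIF2AK3 (0.57), HSP90B1 (0.31) and XBP1 (0.30) were above DU145 by less. HSPA5 (-0.10), CALR (0.01), the co-chaperone DNAJB9 (-0.10) and the HSP70-like HYOU1 (-0.06) were close to their parental level.

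**Figure D3:**
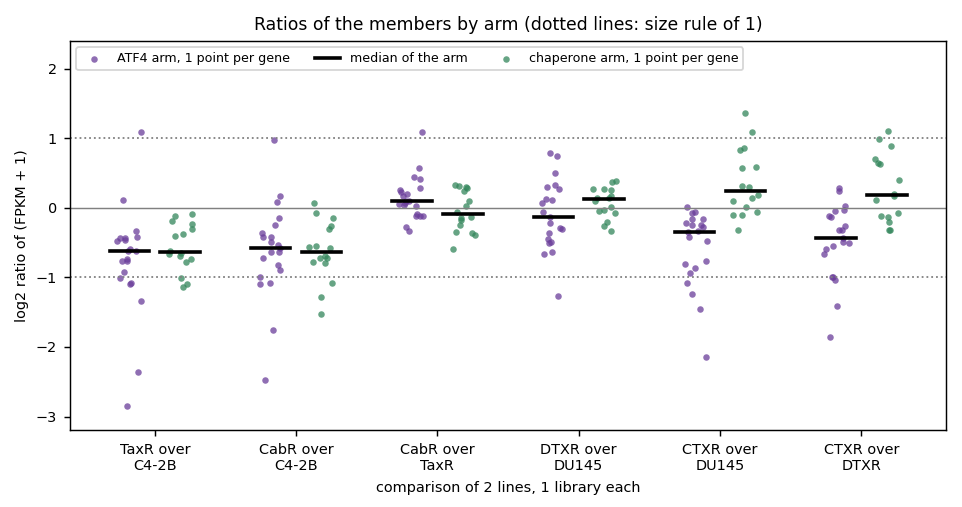
Log2 ratio of (FPKM + 1) of each member (1 point per gene, ATF4 arm purple, chaperone arm green) in 6 comparisons of 1 library each, with the arm median as a bar and the size rule of 1 as dotted lines. In TaxR and CabR both medians lie near -0.6, while in CTXR against DU145 the medians lie on either side of 0 (-0.36 and 0.24).

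The steps from docetaxel to cabazitaxel resistance moved few members past the rule. From TaxR to CabR 1 ATF4-arm gene was higher (CHAC1, 1.09) and 0 members were lower, against 1.75% and 1.84% of all measured genes. CHAC1 in TaxR was under 1 FPKM, and the ratio was 0.42 with a pseudocount of 5. The arm medians were 0.10 and -0.10, with 15 of 21 ATF4-arm genes above and 6 below TaxR, and 7 of 16 chaperone-arm genes above and 9 below, against 46.5% above and 49.0% below of all genes. With the DU145 share removed from TaxR these medians were 0.14 and -0.09. All 6 amino acid and one-carbon enzymes were above TaxR, by 0.06 to 0.58, without passing the rule. From DTXR to CTXR 3 ATF4-arm genes were lower, namely TRIB3 (-1.86), SLC7A5 (-1.41) and SHMT2 (-1.04), and 1 chaperone-arm gene was higher, SDF2L1 (1.101). The shares of all genes were 5.25% lower and 7.29% higher. SESN2, SLC7A1 and CRELD2 stood at the rule (-0.99, -0.99 and 0.99). The medians of that step were -0.44 for the ATF4 arm, with 18 of 21 genes below DTXR, and 0.18 for the chaperone arm, with 10 of 16 above, against 48.1% below and 48.1% above of all genes. Each step shares its docetaxel-resistant library with the comparison of that line with its parent.

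A limma fit with lineage and stage as terms over the 6 libraries called no member by stage. With 2 residual degrees of freedom it called no other gene by stage either, so the lack of called members is not a result about the members. Over all measured genes 0.0% were called in either direction at an adjusted p under 0.05 for docetaxel-resistant against parental, cabazitaxel-resistant against parental and cabazitaxel- against docetaxel-resistant lines. At an unadjusted p under 0.05 limma had 772 genes (4.43%) in the first, 835 (4.79%) in the second and 416 (2.39%) in the third. Of the ATF4 arm 5 genes, all lower, were at this level in the first (DDIT4, ASNS, CHAC1, SLC1A5 and CEBPB), and 6 in the second (TRIB3, DDIT4, SLC1A5, ASNS, SLC7A5 and SLC7A1, all lower). Of the chaperone arm 0 genes were in the first and HERPUD1, lower, in the second, and no member was in the third. The smallest adjusted p of any member from limma was 0.93, 0.86 and 1.0 in turn. For DDIT4 the limma coefficient was -1.43 ± 0.45 (SE) in docetaxel-resistant and -1.65 ± 0.45 in cabazitaxel-resistant lines on the log2 scale. The lineages differed in size, with log2 ratios of -2.36 (TaxR), -2.48 (CabR), -0.49 (DTXR) and -0.81 (CTXR). For TRIB3 the coefficients were -0.65 ± 0.43 and -1.57 ± 0.43, from log2 ratios of -1.01 (TaxR), -0.99 (CabR), -0.28 (DTXR) and -2.14 (CTXR). The ratios of a lineage share its parental library.

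The same fit set the 3 lines of the DU145 lineage against the 3 of the C4-2B lineage. Here the arms stood in opposite order: 14 of 21 ATF4-arm genes were higher and 3 lower in the DU145 lineage, and 8 of 16 chaperone-arm genes were lower and 0 higher, at an adjusted p under 0.05 by limma. Among all measured genes 18.7% were called higher and 20.3% lower. Without overlap between the lineages, 12 ATF4-arm genes were higher and 3 lower in all DU145 lines, and 10 chaperone-arm genes were lower, against 27.2% and 28.6% of all genes. At an unadjusted p under 0.05 limma had 18 ATF4-arm and 9 chaperone-arm genes, against 49.7% of all genes. Lines of 1 lineage descend from each other, so they are not independent. The p-values rest on what the additive lineage and stage terms leave over, with 2 residual degrees of freedom and variances moderated over all genes. They do not measure the spread among the lines of a lineage, since a stage difference shared by both lineages is taken out. With libraries rescaled to 1 total without mitochondrial genes, all measured genes split into 3883 higher and 2748 lower in place of 3260 and 3541, and the lineage medians of all genes shifted by 0.17. The members then called were 14 higher and 1 lower in the ATF4 arm and 5 lower in the chaperone arm. Of the targets of hypoxia-inducible factor limma called 7 lower and 1 higher in the DU145 lineage, and of the mitochondrially encoded mRNAs 6 higher, and their part in the lineage difference was not tested.

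CEBPB had the smallest adjusted p among the members, at 34.1 (C4-2B), 24.6 (TaxR) and 22.6 (CabR) FPKM and 133 (DU145), 83.3 (DTXR) and 98.3 (CTXR). The limma difference of the DU145 minus the C4-2B lineage was 1.91 ± 0.19 (SE, log2 scale, adjusted p = 0.000627). For PSAT1 limma gave 1.92 ± 0.24, with 91.8 to 129 FPKM in the C4-2B and 327 to 520.2 in the DU145 lineage. SLC3A2 (1.80 ± 0.21), MTHFD2 (1.34 ± 0.21), SLC38A2 (1.31 ± 0.24) and SLC1A5 (1.30 ± 0.20) were also higher without overlap. CHAC1 had the widest difference of any member, 2.71 ± 0.48 (adjusted p = 0.00566 by limma). ATF4 mRNA was higher by 1.04 ± 0.25 (adjusted p = 0.0175 by limma). The 3 genes called the other way were ATF5 (-1.96), PHGDH (-0.81) and DDIT4 (-1.25), with SLC7A1 (-0.63, adjusted p = 0.068 by limma) below the C4-2B lineage without overlap but not called. DDIT4 overlapped between the lineages, since DU145 at 151 FPKM lay above CabR at 147. TRIB3 and SLC7A5, called higher, also overlapped, since CTXR lay below C4-2B in both.

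Between the parents alone, DU145 had 9 ATF4-arm genes higher and 1 lower than C4-2B by the size rule, and 0 chaperone-arm genes higher and 7 lower, against 17.3% higher and 19.5% lower of all genes. Of the ATF4 arm 16 of 21 were above C4-2B, and of the chaperone arm 16 of 16 were below, against 47.5% above and 50.7% below.

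In the chaperone arm CRELD2 was lower in the DU145 lineage by -2.08 ± 0.27 (adjusted p = 0.00175 by limma) and CALR by -1.40 ± 0.20 (adjusted p = 0.00253 by limma), with 273.9 to 303 FPKM against 633 to 947. SDF2L1, MANF, EIF2AK3, HERPUD1, PDIA4 and DNAJB9 were the other 6 called lower, with coefficients from -1.57 to -0.80. HSPA5 (-0.44 ± 0.20, adjusted p = 0.13 by limma) and HSP90B1 (-0.33 ± 0.25, adjusted p = 0.31) were not called, nor were SEL1L, HYOU1, EDEM1, ATF6, ERN1 and XBP1. Among the sensors, EIF2AK3 lay at 3.04 to 5.01 FPKM in the DU145 lineage and 11.7 to 12.5 in the other, and ATF6 at 6.13 to 8.30 and 6.87 to 8.46. Over all its genes the ATF4 arm summed to 2766 (C4-2B), 1422 (TaxR) and 1575 (CabR) FPKM and 3540 (DU145), 3424 (DTXR) and 2543 (CTXR). The chaperone arm held 3321, 2107 and 2185 FPKM in the C4-2B lineage and 1309, 1308 and 1577 in the DU145 lineage, so the arm with the larger sum was the chaperone arm in each C4-2B line and the ATF4 arm in each DU145 line. Abundant genes weigh most in such sums, in C4-2B for example CALR (947), HSP90B1 (724) and DDIT4 (823 FPKM). Median FPKM of the ATF4 and chaperone arms was 89.5 and 110 (C4-2B), 57.1 and 70.5 (TaxR) and 59.8 and 69.4 (CabR). In the DU145 lineage it was 151 and 35.6 (DU145), 136 and 39.3 (DTXR) and 98.3 and 54.7 (CTXR).

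**Figure D4:**
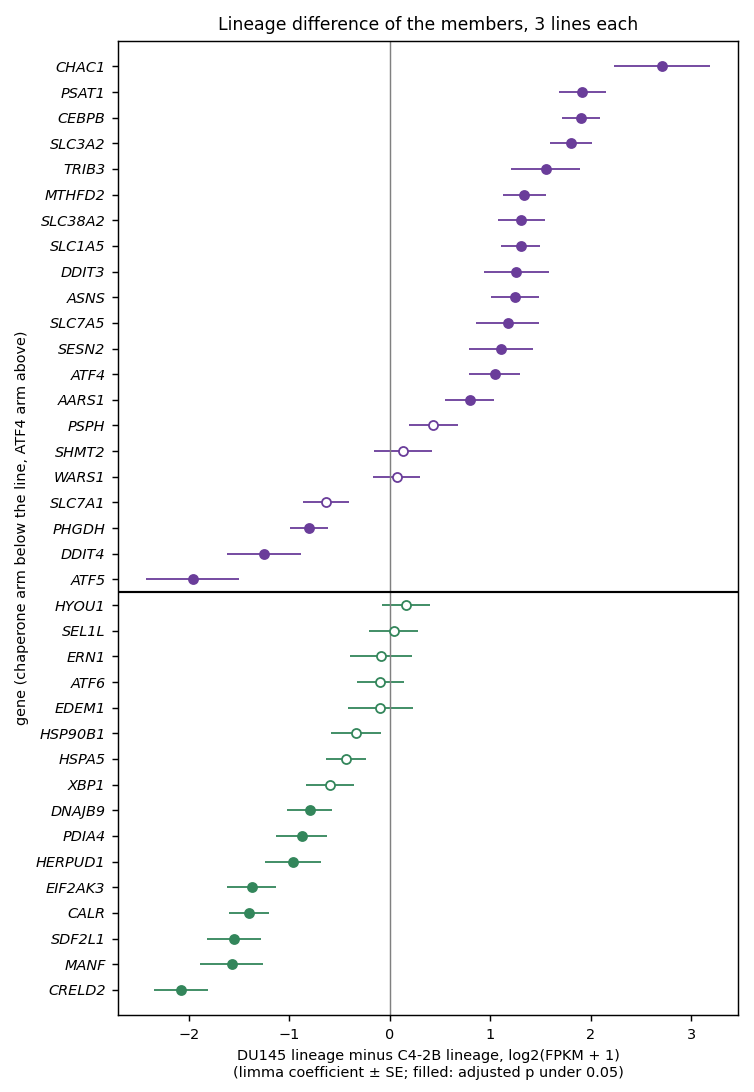
limma coefficient (DU145 lineage minus C4-2B lineage, log2 of FPKM + 1, 3 lines each) of the 37 members with its standard error as a bar; filled points have an adjusted p under 0.05. In the ATF4 arm (above the line) 14 filled points lie right of 0 and 3 left of it, and in the chaperone arm (below the line) all 8 filled points lie left of 0.

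The lineage counts rest on few libraries. Without C4-2B or without DU145, limma called 10 ATF4-arm genes higher, 1 lower and 2 chaperone-arm genes lower. Without CabR or without CTXR it called 8, 0 and 4, without TaxR 3, 0 and 1, and without DTXR 3, 0 and 0. The calls over all genes shrank as well, with 1 residual degree of freedom in place of 2. Of all measured genes 9.42% were called higher and 9.08% lower without C4-2B, and 9.46% and 9.28% without DU145. The shares were 7.17% and 8.20% without CabR, and 7.06% and 8.47% without CTXR. They were 5.82% and 5.34% without TaxR (1014 and 931 genes), and 5.75% and 5.51% without DTXR.

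Other genes of the pathway, from lists set by known function, are given as counts. Of 22 measured further ATF4 targets, 13 were lower and 0 higher in TaxR and likewise in CabR, with median log2 ratios of -1.13 and -1.31, against 5.64% and 6.2% lower and 2.52% and 2.67% higher of all measured genes. In DTXR 0 were lower and 1 higher, and in CTXR 5 were lower and 0 higher, with medians of 0.10 and -0.43, against 5.1% and 5.47% lower and 5.37% and 7.45% higher of all genes. The 4 that were lowest in both C4-2B sublines were GDF15, SLC7A11, STC2 and VLDLR. GDF15, a stress cytokine, stood at 1016 FPKM (C4-2B), 84.7 (TaxR) and 57.2 (CabR). SLC7A11, the cystine importer, had 29.7, 3.99 and 4.47 FPKM. STC2, a secreted stanniocalcin, had 74.9, 14.9 and 12.9 FPKM, and the lipoprotein receptor VLDLR had 21.6, 5.93 and 5.00. Targets of hypoxia-inducible factor were also lower in TaxR and CabR, and the part of that factor in these levels was not tested. The 5 lower in CTXR, named after their values were seen, were STC2 (-2.06), PPP1R15A (-1.30), SLC7A11 (-1.25), XPOT (-1.17) and ALDH1L2 (-1.07). PPP1R15A (GADD34), the phosphatase subunit that reverses eIF2 phosphorylation, stood at 54.8 FPKM (DU145), 56.1 (DTXR) and 21.7 (CTXR).

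Of 16 further tRNA synthetases, 1 was lower in TaxR and in CabR, CARS1, at 39.5 FPKM (C4-2B), 13.5 (TaxR) and 16.5 (CabR). In CTXR all 16 were below DU145, with 3 past the rule and a median of -0.40, against 48.2% below and 5.47% past the rule of all genes. Those 3, named after their values were seen, were GARS1 (-1.02), IARS1 (-1.12) and LARS1 (-1.14). Of 14 genes of the eIF2 kinases and eIF2 pathway, 0 passed the rule in TaxR, CabR or DTXR, and 1 was higher and 1 lower in CTXR, near the shares of all genes (7.45% and 5.47%). Of 39 further ER folding and unfolded protein response genes, 2 were lower in TaxR, 3 lower in CabR, 1 higher in DTXR and 2 higher in CTXR. These counts are at or below the shares of all genes, 5.64% lower (TaxR), 6.2% lower (CabR), 5.37% higher (DTXR) and 7.45% higher (CTXR), except that 3 of 39 in CabR is slightly above. By sign alone 30 of the 39 were below C4-2B in TaxR and 33 in CabR, against 50.2% of all genes in each. Above DU145 were 24 in DTXR and 25 in CTXR, against 48.5% and 48.2%. The medians were -0.30, -0.47, 0.10 and 0.14 in TaxR, CabR, DTXR and CTXR. ERO1A, the ER oxidase, was lower in both C4-2B sublines, at 100.7 FPKM (C4-2B), 20.2 (TaxR) and 22.9 (CabR). The part of hypoxia-inducible factor in the ERO1A level was not tested either. The 2 higher in CTXR, named after their values were seen, were the thioredoxin-domain gene TXNDC11 (1.48) and the translocon subunit SEC61B (1.17).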

How the data were processed

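RNA was measured in 6 cell lines, 1 library each, grouped by the sample labels. TRIzol was used to extract total RNA, and stranded mRNA libraries were made from it, per the labels' protocols. The authors deposited FPKM for 60658 Ensembl identifiers per library, per the file headers, and the submitters' processing notes name HISAT, StringTie, Cuffnorm and GRCh38. For the annotation, strand use and joint scaling nothing is stated in the sources used here. FPKM are model estimates, in which reads of overlapping genes and copies may have been divided between them. Of the 37 members 21 overlap another gene, 19 of them one on the opposite strand.

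FPKM were used as deposited, as log2(FPKM + 1). Symbols and coordinates came from a symbol table (56550 identifiers matched) and GENCODE release 29 (57047). Pairs of lines were compared by size with no test. limma, with lineage and stage terms, moderated variances with an intensity trend and 2 residual degrees of freedom, tested all 17436 measured genes two-sided with Benjamini-Hochberg adjustment. No count model was fitted. The members and lists were chosen with earlier results of these data known. All members could be named; of other lists, up to 4 genes per list and lineage past the size rule in both sublines. Other pseudocounts, filters, scalings, size rules and limma designs were tried, each library was left out in turn, and the DU145 share was removed from TaxR. Fits and motif searches were tested on simulated data. Depth is unknown, so no counting interval is given. Python 3.11.15, numpy 2.4.6, pandas 2.3.3, matplotlib 3.10.9, R 4.3.3 and limma 3.58.1 were used.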

Additional observations from a re-analysis of the deposited data

Results flagged for a closer look

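In 11 results both resistant lines of one lineage lay on one side of their parent and both of the other lineage on the opposite side, whatever the size of the ratios. The share of all measured genes with this pattern was not computed, so the number of members that show it is not a result about the members. Each value is the mean log2 ratio of DTXR and CTXR to DU145 minus that of TaxR and CabR to C4-2B. The median of the chaperone arm differed by 0.81, from -0.64 in TaxR and -0.63 in CabR to 0.12 in DTXR and 0.24 in CTXR. Of the 10 single genes, ATF5 differed by -2.28, from 1.09 and 0.97 to -1.26 and -1.24, and ERN1 by 1.18, from -0.69 and -1.28 to 0.26 and 0.14. CRELD2 differed by 0.86, from -0.38 and -0.14 to 0.10 and 1.09, and PDIA4 by 0.94, from -0.62 and -0.30 to 0.14 and 0.84. The differences of the other 6 were AARS1 0.92, SEL1L 0.83, WARS1 -0.78, CALR 0.57, EIF2AK3 0.56 and ATF6 0.47. In CTXR the ratios of AARS1 and CALR were 0.01 each and changed sign with other scalings, as did SEL1L in CTXR (0.09) and WARS1 in TaxR (0.12). The differences were not tested, since a fit with separate stages per lineage leaves no residual degrees of freedom, and the ratios of 1 lineage share its parental library.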

How the results depend on the processing

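No value past the size rule or the limma threshold changed its direction. Of 1850 alternative member ratios 17 changed sign, all of ratios of at most 0.12 in size, and all 100 alternative values of the arm medians moved by less than 0.25 on the log2 scale. Scaling to the same total shifted the median of all genes in TaxR by -0.12. Counts past the rule moved as follows, the cause not being tested. With a pseudocount of 0.1, ATF4-arm genes higher in CabR were 1, lower from DTXR to CTXR 5, and chaperone-arm genes higher in that step 2. With a pseudocount of 5, ATF4-arm genes were 0 higher in TaxR, 0 higher from TaxR to CabR and 0 lower in DTXR, and chaperone-arm genes 1 lower in CabR and 1 higher in CTXR. Scaled to the same total, 0 ATF4-arm genes were higher in TaxR. Without mitochondrial genes in the total, 1 ATF4-arm gene was higher in CabR, 5 were lower from DTXR to CTXR, and chaperone-arm genes were 1 higher in CTXR and 0 higher from DTXR. By upper quartile 1 ATF4-arm gene was higher in CabR and 2 chaperone-arm genes from DTXR to CTXR, and by median ratio also 2. With a size rule of 0.5, ATF4-arm genes lower were 13 in TaxR, 12 in CabR, 4 in DTXR, 8 in CTXR and 9 from DTXR to CTXR, and higher 1 in CabR, 2 from TaxR to CabR and 3 in DTXR. Chaperone-arm genes lower were 9 in TaxR, 11 in CabR and 1 from TaxR to CabR, and higher 6 in CTXR and 6 from DTXR. Of all genes, 17.2%, 18.5%, 8.22%, 15.6%, 18.3% and 17.9% were then lower and 11.4%, 12.0%, 7.26%, 15.4%, 20.3% and 19.9% higher in TaxR, CabR, CabR against TaxR, DTXR, CTXR and CTXR against DTXR. With a size rule of 1.5, ATF4-arm genes lower were 2 in TaxR, 2 in CabR, 0 in DTXR, 1 in CTXR and 1 from DTXR to CTXR, and higher 0 in TaxR and 0 from TaxR to CabR. Chaperone-arm genes lower were 0 in TaxR and 1 in CabR, and higher 0 in CTXR and 0 from DTXR. Of all genes, 0.51% to 2.16% were then lower and 0.591% to 2.99% higher. For the lineage comparison by limma, no filter on low genes gave 7 ATF4-arm genes higher and 1 lower and 4 chaperone-arm genes lower. The shares of all tested genes fell as well, from 18.7% higher and 20.3% lower to 7.89% and 8.61%. Leaving mitochondrial genes out of the total gave 1 ATF4-arm and 5 chaperone-arm genes lower, with 22.3% of all genes higher and 15.8% lower. Leaving out each library in turn gave 3 to 10 ATF4-arm genes higher, 0 to 1 lower, and 0 to 4 chaperone-arm genes lower. Of all genes 5.75% to 9.46% were then called higher and 5.34% to 9.28% lower. The labels carry no replicate numbers that pair libraries. The limma stage comparisons were paired within lineage, and with no replicate block (lineage left out) 0 members were called by stage, as with it. Of all measured genes 0 were called by stage in both cases. Depth is unknown and limits genes near 1 FPKM, such as CHAC1 in TaxR.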

Other observations

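Among genes outside the 37 members, named after their values were seen, the eIF2 pathway had 1 gene each way in CTXR. EIF2B4, a subunit of the exchange factor of eIF2, stood at 24.4 FPKM (DU145), 22.5 (DTXR) and 50.6 (CTXR), and OMA1, the mitochondrial protease that signals to eIF2 kinases, had 10.2, 12.1 and 4.52. SPCS3, a signal peptidase subunit, stood at 21.2 FPKM (DU145), 86.6 (DTXR) and 25.4 (CTXR). GDF15 stood at 2.495 FPKM (DU145), 0.754 (DTXR) and 0.995 (CTXR), and the ATF4-induced hormone gene FGF21 had 2.13 FPKM in C4-2B and was listed at 0 in TaxR and CabR. These are single libraries with no test.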
